A study of Mus musculus with 16 samples.

Results

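Vomeronasal receptor genes were examined in chromatin of cells sorted as retinal ganglion cells, whose axons form the optic nerve. They were the rows of a deposited table of gene intervals whose names start with Vmn1r or Vmn2r, which gave 337 of 37255 intervals, 211 Vmn1r and 126 Vmn2r. ATAC-seq, in which a transposase cuts open DNA and leaves sequencing adapters in it, had been run on cells labelled as retinal ganglion cells and sorted by flow cytometry from eyes of female mice. Experimental autoimmune encephalomyelitis (EAE), in which an induced immune attack on myelin can reach the optic nerve, was induced at 7 to 8 weeks of age. By label the 16 libraries came from naive control mice (n = 5) and from EAE mice at the presymptomatic stage (n = 4), at onset (n = 3) and at peak (n = 4); no allele, transgene or further agent was named for any group. Whether each library is from an animal of its own is not stated in the labels, so a p-value here is about library spread alone, and some of that spread may be technical. Ganglion cell markers had reads in all 13 listed genes, as did markers of rods (9 of 9 measured), Muller glia (4 of 4) and microglia (5 of 5), so no list was at 0 and reads over gene bodies alone did not identify the sorted cells.

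Vomeronasal receptors are pheromone receptors of sensory neurons in the vomeronasal organ of the nose. Vmn1r genes encode V1R receptors, whose coding sequence usually lies in a single exon and which signal through the G protein subunit encoded by Gnai2. Vmn2r genes encode V2R receptors, which have a long extracellular domain, are split over several exons and occur in neurons that use the subunit encoded by Gnao1. Both families lie in clusters of tandem copies, many of them close to identical, and each vomeronasal neuron expresses very few of them. They are not known as genes of retinal neurons.

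The 2 families were measured over intervals of very different size. The median gene span was 927 bp for Vmn1r and 24392 bp for Vmn2r. The counted interval was the gene body trimmed by 1000 bp at each end, or for genes under 2000 bp a window about the middle of the gene. For the 156 Vmn1r genes under 1000 bp, and 1 such Vmn2r gene, that window ran past the gene and took in its start. Most Vmn2r values are thus of gene bodies without the start, and most Vmn1r values are of the whole short gene with its flanks. Depth was correspondingly unequal, with 18864 reads in Vmn1r and 148236 in Vmn2r intervals over all libraries. The median member had 4.19 reads per library in Vmn1r and 55.4 in Vmn2r, and 13 Vmn1r and 101 Vmn2r members had reads in all 16 libraries. Low counts were mostly even: of values from 1 to 10, 81.2% were even in Vmn1r, 84.0% in Vmn2r and 78.4% over all nuclear intervals. In Vmn1r intervals the count was 2 on 444 occasions and 1 on 70. Counting intervals that treat every read as independent can therefore be too narrow. Reads of all families below are given as density, in reads per kb of interval and 1000000 reads in nuclear gene intervals, over the 322 members with intervals of at least 500 bp (197 Vmn1r, 125 Vmn2r).

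The 4 promoters below are printed because they mark the ends of the range described below. Vmn1r17 and Vmn1r194 had the highest mean densities of Vmn1r, Vmn2r68 the highest of the Vmn2r members with a promoter entry, and Vmn1r107 had no read in any library. The sequences are RefSeq entries of build GRCm38.p6 (250 bases before to 50 bases after the annotated start, 5′ to 3′ on the gene's strand), and capitals mark the 50 bases after the start. They lie at chr6:57361329-57361628 (− strand), chr13:22243965-22244264 (+), chr7:85237655-85237954 (−) and chr7:20668668-20668967 (+).
Vmn1r17: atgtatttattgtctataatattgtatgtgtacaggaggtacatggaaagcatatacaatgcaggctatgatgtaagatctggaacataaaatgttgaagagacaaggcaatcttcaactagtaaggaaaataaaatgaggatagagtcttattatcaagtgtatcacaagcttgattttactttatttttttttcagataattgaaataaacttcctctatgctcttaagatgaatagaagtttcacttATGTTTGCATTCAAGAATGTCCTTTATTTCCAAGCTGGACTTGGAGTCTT
Vmn1r194: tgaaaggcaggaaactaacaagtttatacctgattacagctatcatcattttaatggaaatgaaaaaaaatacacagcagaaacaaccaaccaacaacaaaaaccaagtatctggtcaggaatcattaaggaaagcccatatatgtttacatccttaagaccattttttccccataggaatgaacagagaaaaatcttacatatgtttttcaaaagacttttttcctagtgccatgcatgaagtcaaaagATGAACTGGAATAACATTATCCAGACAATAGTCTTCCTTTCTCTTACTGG
Vmn2r68: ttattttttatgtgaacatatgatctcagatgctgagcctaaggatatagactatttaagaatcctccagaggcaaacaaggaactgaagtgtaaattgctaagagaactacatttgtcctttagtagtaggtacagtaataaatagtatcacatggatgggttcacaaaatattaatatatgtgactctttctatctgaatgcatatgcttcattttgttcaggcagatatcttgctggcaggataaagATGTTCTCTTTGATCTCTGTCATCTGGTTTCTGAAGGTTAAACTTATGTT
Vmn1r107: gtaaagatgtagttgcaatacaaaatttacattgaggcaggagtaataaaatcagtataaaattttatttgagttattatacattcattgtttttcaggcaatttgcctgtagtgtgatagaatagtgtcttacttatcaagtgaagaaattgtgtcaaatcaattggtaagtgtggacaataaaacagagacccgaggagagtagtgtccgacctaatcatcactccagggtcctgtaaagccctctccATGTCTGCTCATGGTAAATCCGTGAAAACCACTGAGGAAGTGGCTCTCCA
In each printed entry the capitals begin with ATG, the letters of a start codon. The annotated start may thus be that of the coding sequence and not of transcription. Read against the file's own coordinates, 138, 159, 0 and 126 of the printed bases lay inside the counted interval of the gene. The Vmn1r107 stretch is identical, base for base, to that of Vmn1r155, another receptor of the same cluster that also had no read. The most similar receptor promoter was 23 base edits away for Vmn1r17 (Vmn1r31), 98 for Vmn1r194 (Vmn1r201) and 24 for Vmn2r68 (Vmn2r72).

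Promoter entries matched 298 members (184 Vmn1r, 114 Vmn2r), and their base composition differed from that of all promoter entries in both families. Median GC content was 36% in Vmn1r and 38% in Vmn2r against 52.7% over all 27025 promoters in the table. The median number of CpG dinucleotides was 1 in each family and 7 over all promoters. At least 10 CpGs were present in 0 of 184 Vmn1r, 0.877% of Vmn2r and 43.9% of all promoters. For a description of the sequences, 5 short words were searched on both strands; none contains another, although matches may overlap. TATAAA, the core of the TATA box, occurred in 44.0% of Vmn1r and 22.8% of Vmn2r promoters against 14.2% of all. CCAAT occurred in 64.1%, 29.8% and 37.9%, and CANNTG, the E-box, in 79.9%, 97.4% and 72.1%, in the same order. TAATTA occurred in 8.15%, 17.5% and 5.31%. CCCNNGGG was in 1 of 184 Vmn1r promoters (0.543%) and in 19.3% of Vmn2r promoters, against 13.4% of all. The families thus shared an AT-rich, CpG-poor start and their shares differed for each of the 5 words. These shares describe letters in 300-base windows, and promoters of copied genes are not independent of each other. Where the annotated start is that of the coding sequence, the window may miss the promoter itself. How many entries this concerns was not tested, so the comparison is of windows at annotated starts.

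Vmn1r intervals carried more reads per kb than Vmn2r intervals in most libraries, and both carried fewer than olfactory receptor (Olfr) intervals, the other large family of chemosensory receptor genes. Summed reads over summed length gave a mean density of 0.522 ± 0.214 in Vmn1r and 0.452 ± 0.170 in Vmn2r (SD over 16 libraries). The ratio within libraries was 1.14-fold (mean log2 0.19 ± 0.13, SD, range −0.08 to 0.35). Vmn1r was the higher family in 14 of 16 libraries, the exceptions being naive 1 and naive 5 (exact two-sided sign-flip permutation test, p = 0.000244). The mean log2 ratio was 0.29 without members with identical promoters, 0.28 without members that overlap another interval and 0.49 as a ratio of means over members. Olfr density was 0.796 ± 0.258, and in 16 of 16 libraries both families lay below it, Vmn1r by −0.65 and Vmn2r by −0.84 on the log2 scale (each adjusted p = 4.58e-05 over 3 comparisons, same exact permutation test). The test covers the spread between libraries, not between genes, and interval length and the inclusion of the gene start differ between the families. Per member, the median of mean densities was 0.618 in Vmn1r, 0.374 in Vmn2r, 0.748 in Olfr and 0.626 over all nuclear intervals. The range between quartiles was 0.329 to 0.833 in Vmn1r and 0.240 to 0.620 in Vmn2r.

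At the upper end, Vmn1r17, on chromosome 6 at 57360467 to 57361378, had a mean density of 2.20 ± 1.84 (SD, n = 16). Its reads were 8, 16, 22, 16 and 8 in the naive libraries, 10, 14, 22 and 6 in the presymptomatic, 16, 18 and 2 in the onset and 2, 8, 10 and 14 in the peak libraries. Every library had reads, and the stages overlapped throughout. Vmn1r194, on chromosome 13 at 22244215 to 22245105, was next with 1.80 ± 0.957. Its reads were 4, 42, 24, 19 and 8 in naive, 19, 16, 21 and 2 in presymptomatic, 2, 47 and 2 in onset and 4, 10, 7 and 4 in peak libraries, with overlap between all stages. Vmn1r199 (1.70 ± 1.52), Vmn1r70 (1.58 ± 1.65) and Vmn1r26 (1.38 ± 1.67) followed, and their SDs were as large as their means or nearly so. Among Vmn2r, the highest were Vmn2r77 (0.926 ± 0.511), Vmn2r68 (0.880 ± 0.542), Vmn2r3 (0.867 ± 0.320), Vmn2r59 (0.864 ± 0.448) and Vmn2r66 (0.856 ± 0.404). Vmn2r77, Vmn2r68 and Vmn2r66 belong to a single cluster on chromosome 7, Vmn2r59 lies on another part of that chromosome, and Vmn2r3 lies on chromosome 3. Their reads were far more numerous, for Vmn2r3 from 21 (peak 4) to 381 (onset 2).

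Most members without any read lay on chromosome 7. No read was counted in any library for 22 Vmn1r members (10.43%) and 3 Vmn2r members (2.38%), against 3 Olfr intervals (0.268%) and 835 of all nuclear intervals (2.24%). The first by name were Vmn1r-ps79, Vmn1r100 and Vmn1r107 in Vmn1r and Vmn2r-ps129, Vmn2r46 and Vmn2r47 in Vmn2r. Of the 22 Vmn1r members, 21 lay on chromosome 7 and the other, Vmn1r186, on an unplaced scaffold of that chromosome (7_GL456219_random). Counting error alone allows densities of up to 0.00129 to 0.0273 for those Vmn1r members with intervals of at least 500 bp (3 reads over all libraries). Most were windows of about a kilobase, but 3 intervals without reads were long: Vmn1r63 (21885 bp), Vmn2r46 (13936 bp) and Vmn2r47 (22544 bp), named here after their values were seen. Vmn1r187, on the scaffold, has the same interval length as Vmn1r63 and held 1 read. The lowest densities above 0 otherwise were those of Vmn1r139 (1 read), Vmn2r21 (28 reads over 38899 bp) and Vmn2r35 (74 reads over 31717 bp).

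Density was lower where a receptor's promoter was more like that of another receptor. Of the 36 Vmn1r members whose 300-base entry was identical to another receptor's, 16 had no read and the median density was 0.0261. Of the 148 with a promoter of their own, 3 had no read and the median was 0.691. By number of edits to the most similar receptor promoter, the Vmn1r medians were 0.0261 at 0 edits, 0.394 at 1 to 9, 0.653 at 10 to 59 and 0.792 at 60 or more. Vmn2r showed the same order at 0.117, 0.338, 0.454 and 0.521, with 7, 16, 69 and 22 members. Within chromosome 7 alone, the Vmn1r medians were 0.0153 for the 34 identical and 0.599 for the 60 others, and the Vmn2r medians 0.117 for 7 and 0.471 for 40. Spearman's rho between edits and density was 0.58 over 175 Vmn1r and 0.39 over 114 Vmn2r members, and 0.24 and 0.30 without the identical promoters; members share libraries and clusters, so these are descriptions. How reads that align to several copies were treated is not given in the sources used here, and its part in these densities was not tested.

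**Figure D1:**
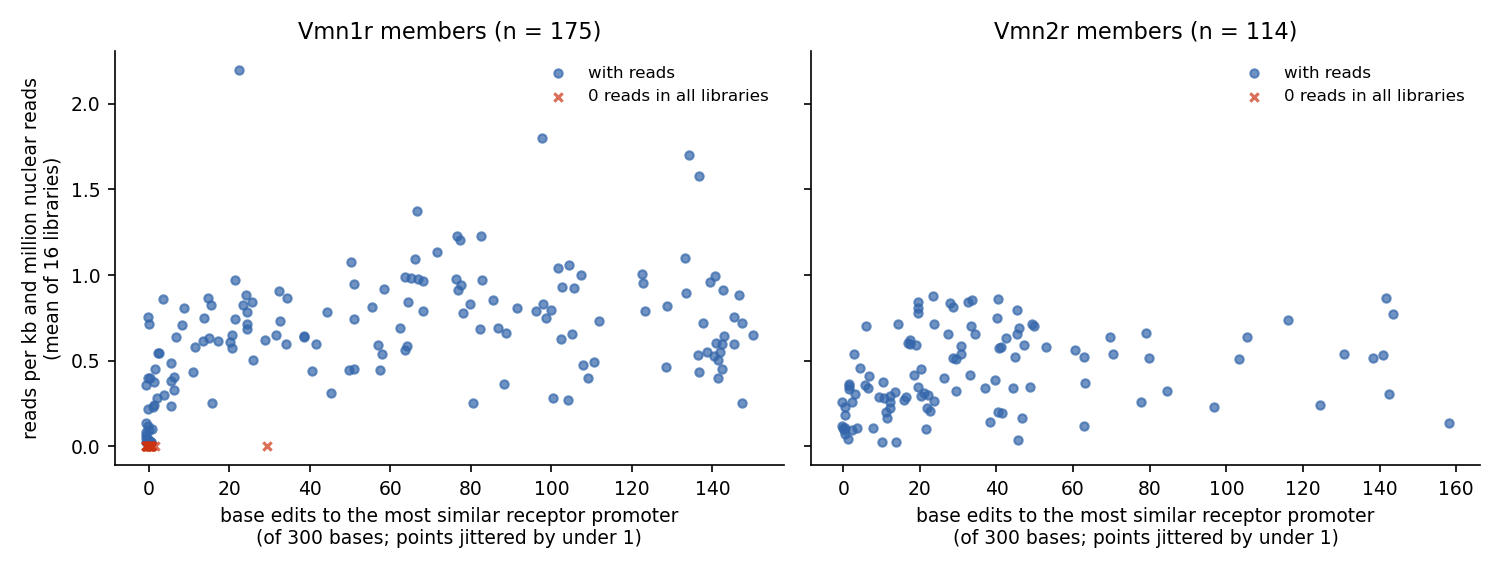
Mean density over 16 libraries (y axis, reads per kb and per 1000000 nuclear reads) against the number of base edits to the most similar receptor promoter (x axis), with 1 point per member and crosses for members at 0 reads. Nearly all crosses stand at 0 edits in Vmn1r, and the points rise with distance in both panels.

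Density differed between chromosomes within each family. Of Vmn1r members, 104 lay on chromosome 7, 51 on chromosome 6, 36 on chromosome 13 and 14 on chromosome 17. Summed density was 0.907 ± 0.390 on chromosome 13, 0.659 ± 0.295 on 6, 0.647 ± 0.315 on 17 and 0.371 ± 0.150 on 7 (SD, n = 16). Chromosome 13 was above chromosome 7 in 16 of 16 libraries, by 1.26 on the log2 scale (adjusted p = 9.16e-05 over 21 pairs of chromosomes, exact sign-flip permutation test). Without the members with identical promoters that difference was 0.89, again in 16 of 16 libraries. Chromosomes 17 and 6 did not differ beyond the spread between libraries (−0.08 ± 0.50, SD; adjusted p = 0.560, exact permutation test). Vmn2r members were spread over more chromosomes, with 53 on chromosome 7, 32 on 17, 11 on 5, 9 on 6 and 8 each on 3 and 10. Their densities ran from 0.622 ± 0.184 on chromosome 3 through 0.487 ± 0.211 on 17, 0.429 ± 0.185 on 7, 0.424 ± 0.191 on 6 and 0.293 ± 0.110 on 5 to 0.218 ± 0.0887 on 10. Neighbours in that order differed by the same exact permutation test except chromosomes 6 and 7 (adjusted p = 0.701). Without identical promoters, chromosomes 17 and 7 no longer differed either (0.09 ± 0.21 against 0.18 ± 0.21 with them; adjusted p = 0.124 against 0.00612, exact permutation test). On chromosome 3 the long intervals of Vmn2r1 (139074 bp) and Vmn2r-ps11 (209881 bp) enclose those of Vmn2r2 and Vmn2r7, so reads there can be counted for both genes. In all, 9 members (3 Vmn1r, 6 Vmn2r) overlap another counted interval. Without them the chromosome 3 density was 0.633 ± 0.287, and the same pairs of neighbours passed or missed the threshold. Vmn2r1, Vmn2r2, Vmn2r7 and Vmn2r-ps11 were among those left out, so that density rests on only part of the 8 members of chromosome 3.

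**Figure D2:**
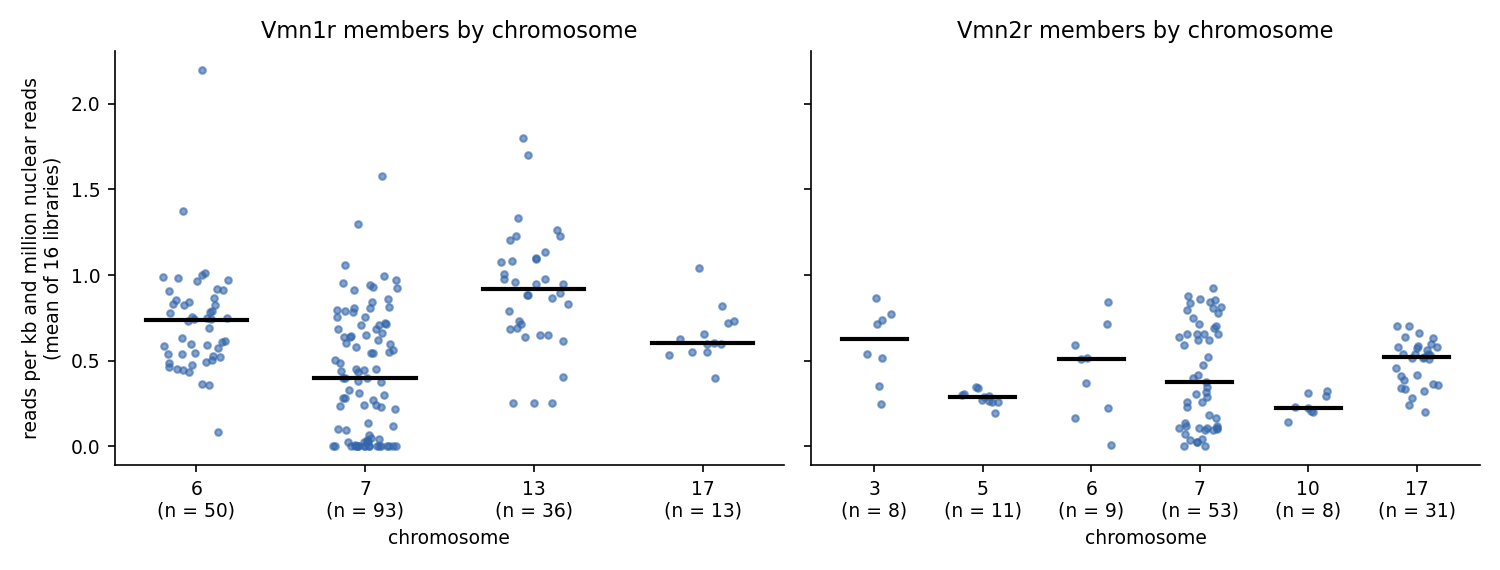
Mean density of each member over 16 libraries (y axis) by chromosome (x axis), for chromosomes with at least 5 members; bars are medians over members. The Vmn1r members at and near 0 stand on chromosome 7, and the Vmn2r members of chromosomes 5 and 10 lie in a narrow low band.

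Chromosome 7 held both low and high clusters, split here where neighbours lay over 1 Mb apart. The largest Vmn1r cluster, 66 members from 20101158 to 24055691, had a median density of 0.219 and 19 of the members without reads. Another, 24 members from 10273828 to 13220289, had a median of 0.740 and none without reads. Vmn2r showed a like contrast, with 24 members from 7212996 to 10176286 at a median of 0.107, 2 of them without reads, and 15 members from 84940169 to 87037968 at 0.782. In that last cluster every member lay between 0.620 and 0.926, above the Vmn2r median of 0.374. The chromosome 6 Vmn1r genes formed 3 clusters with medians of 0.786, 0.767 and 0.525, and the chromosome 13 genes a single cluster of 36 at 0.922. Coordinates are as the file gives them, with starts raised by 1.

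Across libraries both families rose and fell together, and no difference between stages passed the test. The Vmn1r share of reads in nuclear intervals was 0.0131, 0.0109, 0.0336, 0.0312 and 0.0104% in the naive libraries, 0.0174, 0.0231, 0.0213 and 0.0205% at the presymptomatic stage, 0.0124, 0.0147 and 0.0126% at onset and 0.0172, 0.0166, 0.0314 and 0.0122% at peak. The Vmn2r share was 0.126, 0.0873, 0.271, 0.226 and 0.0972% in naive, 0.128, 0.178, 0.158 and 0.178% in presymptomatic, 0.0916, 0.123 and 0.0904% in onset and 0.134, 0.134, 0.224 and 0.104% in peak libraries. Naive 3, naive 4 and peak 3 stood above all other libraries in both families, while the 3 onset libraries stood together at the low end beside naive 1, naive 2, naive 5 and peak 4. The range over libraries was 3.22-fold for Vmn1r and 3.11-fold for Vmn2r. Counting error was far smaller: the half-width of the 95% binomial (Wilson) interval was 3.81 to 14.1% of the share for Vmn1r and 1.34 to 4.85% for Vmn2r. For example, the Vmn1r share in peak 4 had an interval of 0.0106 to 0.0141% and that in naive 3 of 0.0323 to 0.0349%; these intervals cover counting error only.

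**Figure D3:**
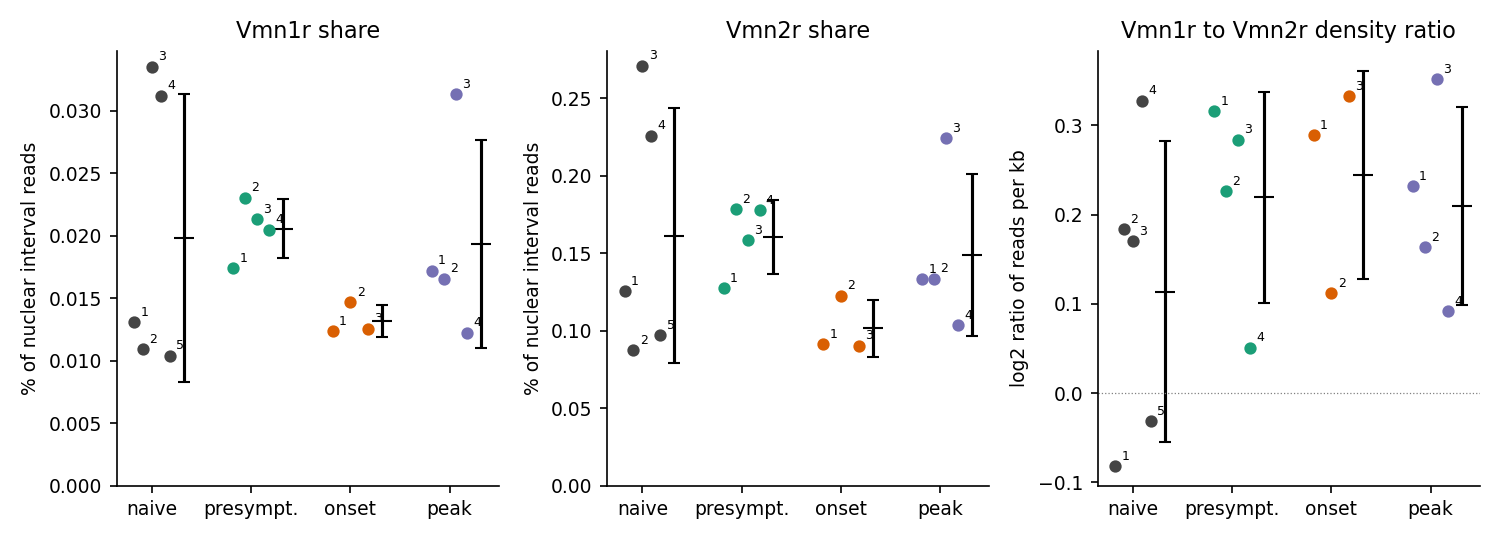
Share of nuclear interval reads (% on the y axis) in Vmn1r and Vmn2r intervals, and the log2 ratio of their densities, by stage (x axis); points are libraries with their replicate number, and bars are the mean ± SD. Naive 3, naive 4 and peak 3 are highest in both share panels, and the ratio lies below 0 in naive 1 and naive 5 only.

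None of the stages differed from another past the threshold. Mean Vmn1r shares were 0.0198 ± 0.0115% (naive, SD, n = 5), 0.0206 ± 0.00235% (presymptomatic, n = 4), 0.0132 ± 0.00128% (onset, n = 3) and 0.0194 ± 0.00831% (peak, n = 4). Mean Vmn2r shares were 0.161 ± 0.0823%, 0.161 ± 0.0239%, 0.102 ± 0.0183% and 0.149 ± 0.0523%, in the same order. Onset lay below naive by −0.00663 percentage points in Vmn1r (p = 0.429, adjusted p = 0.857) and by −0.0599 in Vmn2r (p = 0.250, adjusted p = 0.686; two-sided exact permutation tests, 12 in all). The smallest p was for onset against the presymptomatic stage in Vmn1r, where the 3 onset libraries all lay below the 4 presymptomatic ones (−0.00737 points, p = 0.0286, adjusted p = 0.343, exact permutation test), and that is the smallest p this pair of groups can give. The corresponding Vmn2r values were −0.0590 points and p = 0.0571 (adjusted p = 0.343, exact permutation test), and the groups likewise did not overlap. Without naive 3, naive 4 and peak 3, the difference between onset and naive turned to 0.00174 points in Vmn1r and shrank to −0.00188 in Vmn2r (adjusted p = 0.360 and 0.800, exact permutation tests). Without the same libraries, the presymptomatic stage lay above naive by 0.00911 points in Vmn1r and 0.0571 in Vmn2r (adjusted p = 0.137 for each, exact permutation tests). In both families all presymptomatic libraries then lay above the remaining naive ones, which were chosen by leaving out the high libraries. The ratio of the families did not pass a test between stages either. The log2 ratio was 0.11 ± 0.17 in naive, 0.22 ± 0.12 in presymptomatic, 0.24 ± 0.12 in onset and 0.21 ± 0.11 in peak libraries (SD; adjusted p = 0.714 for each stage against naive, exact permutation test).

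The relation between families held over all 16 libraries. Log2 Vmn1r and Vmn2r shares had Pearson's r = 0.97 and Spearman's rho = 0.94 (100000 permutations, p = 1e-05 for each, the smallest they can give; adjusted p = 2e-05 over 4 relations). It was 0.957 without the 2 libraries farthest from the median, 0.976 with stage means removed and 0.937 over the 13 libraries other than naive 3, naive 4 and peak 3. The share of both families rose in the same way with the Olfr share (r = 0.98, rho = 0.96, permutation adjusted p = 2e-05). Over nuclear reads per library r was −0.16 (permutation adjusted p = 0.545) and over the mitochondrial share 0.42 (permutation adjusted p = 0.142), neither past the threshold. The libraries differed widely in both, from 1.58 to 15.1 M (megareads) in nuclear intervals and from 8.36 to 64.7% mitochondrial reads. By family and chromosome, naive 3, naive 4 and peak 3 were the 3 highest in 7 of the 10 groups with at least 5 members. The exceptions were Vmn1r on chromosome 17 and Vmn2r on chromosome 3, where presymptomatic 4 was among the 3 highest, and Vmn2r on chromosome 10, where these were naive 1, naive 4 and peak 1. Of 30 tests of a stage against naive by such group, 0 passed, 0 had an unadjusted p under 0.05 and the smallest unadjusted p was 0.0893 (exact permutation tests on log2 shares).

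**Figure D4:**
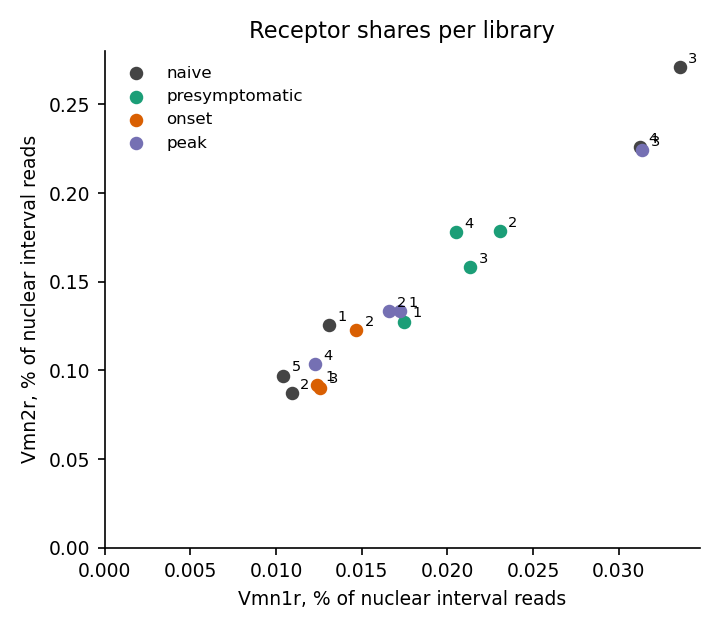
Vmn2r share against Vmn1r share of nuclear interval reads (both in %), with 1 point per library coloured by stage and labelled by replicate. The points follow a single line from naive 5 and naive 2 at the low end to naive 3 at 0.0336% and 0.271%.

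Single members were tested with edgeR's quasi-likelihood test, fitted on all intervals. Of 29902 intervals tested, 184 were members: 118 of 126 Vmn2r and 66 of 211 Vmn1r, since most Vmn1r had too few reads. No member and no other interval passed an adjusted p of 0.05 at the presymptomatic stage, onset or peak against naive (0% called in each; Benjamini-Hochberg over all intervals), nor in the 3 comparisons between EAE stages. DESeq2 called 1 interval at peak, which was no member, and none at the other stages. The 3 comparisons share the naive libraries. At onset, 116 of 118 tested Vmn2r members (98.3%) were lower than in naive, as were 55 of 66 Vmn1r members (83.3%), beside 51.4% of all intervals. The families rose and fell together between libraries, so these are not counts of independent changes. The median log2 fold change was −0.82 in each family, beside −0.01 over all intervals. For the share of the whole family, the mean log2 difference between onset and naive was −0.40 in Vmn1r and −0.53 in Vmn2r. The size thus differed with the measure. An unadjusted p under 0.05 on the lower side was reached by 26 Vmn2r (22.0%) and 2 Vmn1r members (3.03%), beside 3.38% of all intervals (4.95% in either direction). Without naive 3, 52 Vmn1r members passed the filter on low counts in place of 66. The filter can thus favour members with many reads in that naive library, which can add to the count of lower members. By how much was not tested, so these counts do not describe all members. With 1 library left out, the medians ran from −1.09 to −0.38 in Vmn1r and from −1.17 to −0.50 in Vmn2r. Without naive 3, naive 4 and peak 3 the medians were −0.17 in Vmn2r and 0.20 in Vmn1r, and the number of members at an unadjusted p under 0.05 went from 28 to 8. Leaving out naive 3 alone gave 5, naive 4 alone 15, naive 2 alone 54, naive 5 alone 49, onset 1 alone 9, onset 2 alone 52 and onset 3 alone 15. Rod markers had their highest mean density at onset (4.87, against 1.89 in naive libraries), and their part in the receptor values was not tested.

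**Figure D5:**
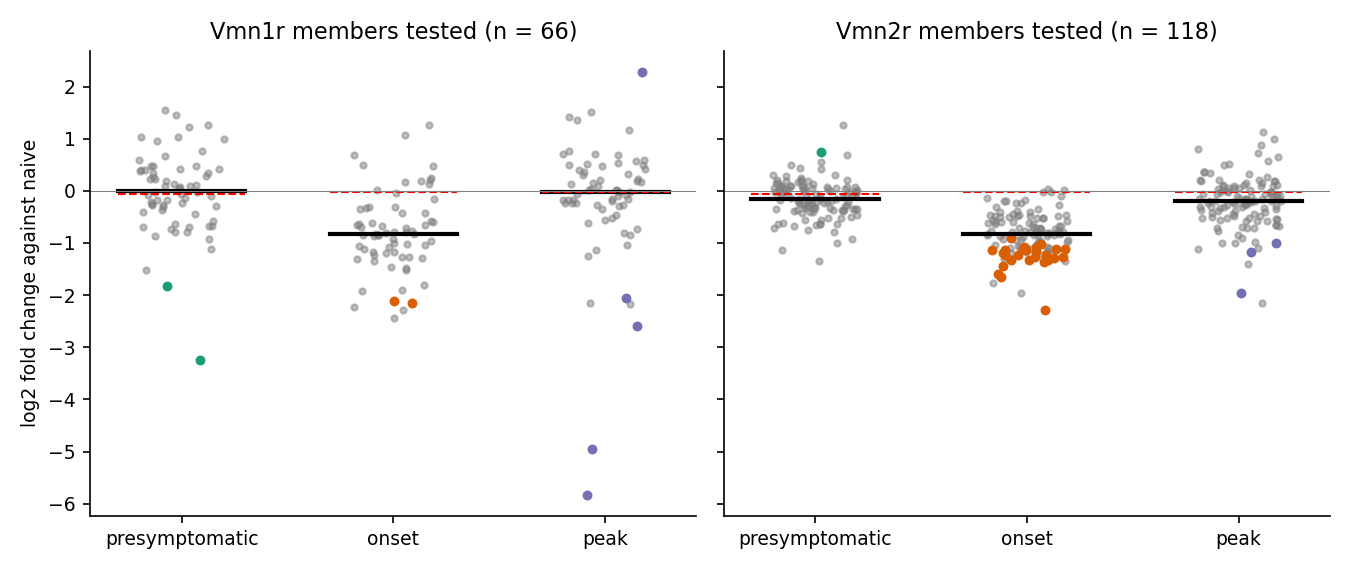
Log2 fold change against naive (y axis) of each tested member at the presymptomatic stage, onset and peak (x axis); black bars are member medians, red dashed lines the median of all intervals tested, and coloured points have an unadjusted p under 0.05. At onset the medians of both families lie at −0.82, and the 26 coloured Vmn2r points are all on the lower side; no point passes the adjusted threshold.

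The named members show how these values arise. Vmn2r67, on chromosome 7 at 85136240 to 85155902, had 10.26, 4.53, 16.8, 13.9 and 4.57 CPM (edgeR counts normalised by TMM) in naive libraries and 1.26, 5.72 and 2.53 in onset libraries. Naive 2 and naive 5 lay below onset 2, so the groups overlapped, and the log2 fold change was −1.60 ± 0.48 (SE; edgeR adjusted p = 0.972). Vmn2r120, on chromosome 17 at 57508783 to 57545314, had 10.0, 7.13, 26.4, 17.7 and 6.94 CPM in naive and 5.27, 6.12 and 5.90 in onset libraries. Here the groups did not overlap, and the log2 fold change was −1.23 ± 0.39 (SE; edgeR adjusted p = 0.972). On the Vmn1r side the smallest p on the lower side belonged to Vmn1r205 (−2.15 ± 1.04) and Vmn1r24 (−2.11 ± 1.03), each with at most 14 reads in any library. Only 2 tested Vmn2r members were on the higher side at onset, Vmn2r18 (0.01 ± 0.45) and Vmn2r39 (0.03 ± 0.93), and both changed sign under other settings. Vmn1r6 (1.26 ± 0.90) and Vmn1r218 (1.08 ± 0.92) were the highest-ranked Vmn1r members on that side.

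At the presymptomatic stage the tested Vmn1r members split evenly, and the share of lower Vmn2r members was near that of all intervals. Of Vmn1r, 33 were higher and 33 lower (50% lower), and of Vmn2r 45 higher and 73 lower (61.9%), beside 58.4% lower over all intervals. The medians were 0.00 in Vmn1r and −0.15 in Vmn2r, beside −0.06 over all intervals. An unadjusted p under 0.05 was reached by 2 Vmn1r and 1 Vmn2r members, beside 1.16% of all intervals. Vmn1r65 had 4, 30, 8, 9 and 12 reads in the naive libraries and 4, 0, 0 and 0 in the presymptomatic ones. Of the presymptomatic libraries only presymptomatic 1 had reads. The groups met at 4 reads, while in CPM presymptomatic 1 (0.243) lay below the lowest naive library (naive 1, 0.427). The log2 fold change was −3.24 ± 1.04 (SE, edgeR adjusted p = 1.00). Vmn1r215 was at −1.83 ± 0.80. Vmn2r27 was at 0.75 ± 0.32, with 10.7 ± 3.50 CPM in presymptomatic and 6.29 ± 2.65 CPM in naive libraries (SD). Vmn1r176 (1.56 ± 0.87), Vmn1r218 (1.44 ± 0.88), Vmn2r111 (0.68 ± 0.40), Vmn2r43 (−1.35 ± 0.79) and Vmn2r55 (−0.68 ± 0.41) completed the ranked members. Without naive 3, naive 4 and peak 3 the medians became 0.96 and 0.65, and 44 members reached an unadjusted p under 0.05 in place of 3.

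At peak the medians were −0.02 in Vmn1r and −0.20 in Vmn2r, beside −0.03 over all intervals. Lower than in naive were 34 of 66 Vmn1r (51.5%) and 83 of 118 Vmn2r members (70.3%), beside 52.9% of all intervals. With 1 library left out, the Vmn2r median ran from −0.58 to 0.15. An unadjusted p under 0.05 was reached by 5 Vmn1r and 3 Vmn2r members, beside 3.61% of all intervals. Vmn1r67 had no read in any of the 4 peak libraries, and 6, 15, 10, 8 and 0 reads in the naive ones. Naive 5 and presymptomatic 4 were at 0 too, so the groups overlapped, and no fold is given against a group without reads. Vmn1r77 went the other way, with 4, 16, 22 and 0 reads at peak and 2, 15, 4, 4 and 2 in naive libraries (2.28 ± 0.88, SE; edgeR adjusted p = 1.00). Its peak values rest on peak 2 and peak 3. Vmn1r6 (1.50 ± 0.90), Vmn1r8 (−2.05 ± 0.93), Vmn2r32 (1.13 ± 0.67), Vmn2r86 (1.00 ± 0.62), Vmn2r91 (−1.18 ± 0.42) and Vmn2r72 (−0.99 ± 0.46) were the other ranked members.

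Between EAE stages, 55 of 66 Vmn1r (83.3%) and 109 of 118 Vmn2r members (92.4%) were lower at onset than at the presymptomatic stage, beside 46.7% of all intervals. The medians were −0.82 and −0.71 beside 0.03 over all intervals. On the lower side, 1 Vmn1r and 17 Vmn2r members (14.4%) reached an unadjusted p under 0.05, beside 1.72% of all intervals. From onset to peak the medians were 0.73 in Vmn1r and 0.57 in Vmn2r, beside 0.03, and 4 Vmn1r and 16 Vmn2r members (13.6%) reached an unadjusted p under 0.05 on the higher side, beside 2.99% of all intervals. The same 3 onset libraries enter both comparisons, in addition to that with naive. Peak against the presymptomatic stage gave medians of −0.02 and −0.10, with 3 members of each family at an unadjusted p under 0.05, beside 3.41% of all intervals. With edgeR, 0 members passed the adjusted threshold in these 3 comparisons.

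Other genes of vomeronasal neurons did not pass the test either. Of 31 listed genes, 30 were in the table and 16 were tested; 0 passed in any stage with edgeR. Their medians were −0.05, −0.07 and −0.17 at the presymptomatic stage, onset and peak, beside −0.06, −0.01 and −0.03 over all intervals. An unadjusted p under 0.05 was reached by 0, 0 and 2 of the 16, beside 1.16, 4.95 and 3.61% of all intervals. At onset 6 of the 16 were higher and 10 lower than in naive, the lowest being H2-M10.4 (−1.37 ± 1.01, SE). Among the higher ones, Trpc2, the cation channel of vomeronasal transduction, was at 0.23 ± 0.49, Gnai2 at 0.62 ± 0.43 and Gnao1 at 0.26 ± 0.22 (SE). The 2 with such a p at peak were Lhx2 (−0.60 ± 0.28), a homeodomain factor of olfactory and retinal development, and Robo2 (−0.44 ± 0.21), an axon guidance receptor. The median density of the list per library ran from 0.533 to 0.904.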

How the data were processed

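Each library had 2 columns in the deposited table, a read count and an RPKM per gene interval. As deposited by the authors, the counts were unscaled whole numbers, and the RPKM values deposited by the authors returned 1 constant total per library with the interval length given above (largest relative deviation 9.15e-14). Per the submitters' processing notes, the tools were HISAT2, HTSeq and cutadapt (no versions); the genome build, the treatment of duplicates and of reads with several alignments, and any shift of read ends are not given in the sources used here. Starts of 319 of the 335 members found in a RefSeq gene table (GRCm38.p6) were equal to those of that table; no build is assigned to the file's coordinates. Reads in nuclear intervals ranged from 1.58 to 15.1 M (megareads) per library, and the 13 mitochondrial intervals were left out of shares and densities. No 2 libraries held identical counts.

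Counts of all intervals with sufficient reads (filterByExpr, minimum count of 10, minimum total of 15) were fitted with edgeR 4.0.16 (TMM, quasi-likelihood test, 1 mean per group, 16 libraries, Benjamini-Hochberg) in R 4.3.3, with DESeq2 1.42.0 as an alternative. Tested on simulated data for onset against naive (29593 intervals), 21% of 2-fold and 81% of 4-fold changes were recovered, with 3 false calls. The changes were simulated only in intervals with mean reads several times those of the median Vmn1r member (4.19 per library). Intervals were drawn independently, without shifts shared within a library. These rates therefore do not describe most Vmn1r members. Shares and ratios were tested by exact permutation with numpy 2.4.6, and Wilson intervals came from scipy 1.17.1. Base edits between promoters came from edlib 1.3.9.post1.

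The members and gene lists were chosen with earlier results of these data known. Promoter similarity, clusters split at gaps of 1 Mb, the pairs of chromosomes, the comparison with Olfr and the 5 words were chosen after the values were seen. Members were named by rule: in each family the 5 highest and 2 lowest nonzero mean densities, the 2 smallest edgeR p-values on each side of each comparison with naive, and up to 3 members at 0 reads in order of name. Protein sequences foreseen by that rule were not used here. Alternatives covered scaling, filters, the denominator, interval length, pseudogene names, the densest 5% of members, the replicate block, the groups fitted and each library left out.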

Additional observations from a re-analysis of the deposited data

Results flagged for a closer look

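By Dixon's rule at 95%, applied to 45 groups of 4 or 5 libraries, 1 library stood far from its group in 2 cases, and chance flags about 1 group in 20. Peak 3 had a Vmn1r share on chromosome 6 of 0.0157% of nuclear reads, with 94.8% of the peak libraries' range between it and the next. Peak 3 also had a Vmn2r share on chromosome 17 of 0.0584%, with 87.2% of the range between it and the next. The same library was among the 3 highest for the total share of each family.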

How the results depend on the processing

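The 0 members called in each comparison with naive stayed at 0 under all alternatives run. Vmn1r density was above Vmn2r density under all 25 alternatives (mean log2 ratio 0.16 to 0.49). The ratio by stage kept its direction and missed the threshold in every alternative run; the median over members gave no value, since the Vmn1r median was 0 in 4 libraries, and a mean over members was used in its place. That setting, those without members with identical promoters or with overlapping intervals and the one without naive 3, naive 4 and peak 3 were chosen after seeing the data, the 3 libraries for their high share.

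Several share differences from naive changed sign, and the cause was not tested. For Vmn1r at peak the values were 0.0707 (log2 of the share), 0.000253 points (all interval reads as denominator) and 0.00387 points (without the 3 libraries), and for Vmn1r at onset 0.00174 points (without the 3). For Vmn2r at the presymptomatic stage they were 0.13 (log2), 0.0190 points (all reads), 0.000259 points (without the densest 5%) and 0.0571 points (without the 3), and at peak 0.0202 points (without the 3). Leaving out 1 library gave −0.00161 to 0.00417 points for Vmn1r and −0.0194 to 0.0265 for Vmn2r at the presymptomatic stage, −0.00450 to 0.00294 and −0.0378 to 0.0148 at peak, and −0.00898 to −0.00320 and −0.0784 to −0.0325 at onset. Without the 3 libraries the median fold changes were 0.96 (Vmn1r) and 0.65 (Vmn2r) at the presymptomatic stage and 0.20 and −0.17 at onset.

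Of 379 alternatives for named members, 364 kept direction and call and 15 changed sign. These were Vmn2r18 and Vmn2r39 at onset: −0.0330 and −0.0140 with RLE scaling, −0.0343 and −0.0471 with DESeq2, −0.0163 for Vmn2r18 with only the 2 groups fitted, and −0.35 to 0.41 and −0.56 to 0.56 when 1 library was left out.

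With the replicate number as a block, Vmn2r18 was at −0.0866 and Vmn2r39 at −0.46, 0 members were called, and members at an unadjusted p under 0.05 went from 3, 28 and 8 to 2, 34 and 12 (presymptomatic, onset, peak). The numbers do not pair the libraries: over 21 pairs with the same number the correlation of deviations ran from −0.34 to 0.37, 6 pairs were over 0.1, and 2 of 16 libraries correlated best with their own number. At onset, members at an unadjusted p under 0.05 numbered 20 with scaling by nuclear reads, 39 with DESeq2 and 33 with RLE scaling. Depth limited the Vmn1r family most, of which 66 of 211 members could be tested.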
